A study of Mus musculus with 15 samples.

Results

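The 10 genes described here act in the handling of iron and heme by macrophages that engulf red cells: Slc40a1, Slc48a1, Hmox1, Blvrb, Slc11a1, Fth1, Ftl1, Tfrc, Steap3 and Spic. They were taken by symbol from the authors' gene tables, where they are 10 of 24084 genes in the count table and 10 of 24414 in the RPKM table, and all 10 passed the filter on low counts that left 15289 genes for testing. The cells were positive for F4/80 and CD45, sorted from C57BL/6J mice and sequenced ex vivo, without culture, from small amounts of total RNA. There were 15 libraries in 6 groups: spleen macrophages (SpM, 3), brain microglia (3), macrophages of sympathetic ganglia (SAM ganglia, 3), of sympathetic nerve fibers dissected from inguinal fat (SAM fibers, 2), of the subcutaneous fat beside them (sATM, 2) and of visceral fat (vATM, 2). Every title carries the mark ND, which the labels do not spell out, and no transgene, treatment, sex or age is named. Tissues came from 10 mice, with no word on which animals gave which library, so the p-values rest on library-to-library spread that may be technical only.

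Tissues were digested at 37 °C in different ways. Spleen, brain and both fats had 30 minutes of collagenase. Fibers had 30 minutes of hyaluronidase and 15 of collagenase, and ganglia 10 minutes of collagenase and 30 of trypsin. Tissue and digestion cannot be told apart in comparisons that involve fibers or ganglia.

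Macrophages of the spleen and liver clear aged red cells. Heme released in the phagolysosome crosses into the cytosol through SLC48A1 (HRG1), is opened by heme oxygenase 1 (Hmox1) into iron, carbon monoxide and biliverdin, and the biliverdin is reduced to bilirubin. The freed iron is stored in ferritin, a shell of heavy (Fth1) and light (Ftl1) chains, or leaves the cell through ferroportin (Slc40a1), the known cellular iron exporter. SPIC is a transcription factor required for the formation of red pulp macrophages of the spleen, and its gene is induced by heme.

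Several of these mRNAs also carry iron-responsive elements, short hairpins bound by the iron regulatory proteins IRP1 and IRP2 when cellular iron is low. In a 5′ UTR such binding blocks translation, and in the 3′ UTR of Tfrc it protects the mRNA from decay. The hairpin was searched for as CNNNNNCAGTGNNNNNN, read on the transcript strand, with the 5 bases before CAGTGN able to pair with the 5 after it, in GENCODE M21 transcripts on GRCm38, the assembly that mm10 names. The sites are shown because they divide the 10 genes by how iron can act on their mRNA, which RNA levels alone do not show. Each is 30 bases of the transcript written 5′ to 3′ with T for U, and the 6-base loop is in capitals.
Fth1, 5′ UTR, chr19:9982732-9982761, plus strand: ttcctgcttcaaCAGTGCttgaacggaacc
Ftl1, 5′ UTR, chr7:45459778-45459807, minus strand: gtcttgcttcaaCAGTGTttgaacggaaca
Slc40a1, 5′ UTR, chr1:45925464-45925493, minus strand: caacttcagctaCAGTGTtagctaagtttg
Tfrc, 3′ UTR, chr16:32631219-32631248, plus strand: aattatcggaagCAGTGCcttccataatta
Tfrc, 3′ UTR, chr16:32631598-32631627, plus strand: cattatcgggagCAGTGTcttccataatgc
Tfrc, 3′ UTR, chr16:32631663-32631692, plus strand: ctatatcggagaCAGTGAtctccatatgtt
Tfrc, 3′ UTR, chr16:32631710-32631739, plus strand: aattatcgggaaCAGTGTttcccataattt
Matches in a 5′ UTR were found in 31 of 21877 genes (0.142%), 3 of which are among the 10, and matches in a 3′ UTR in 129 genes (0.59%), of which Tfrc is the only one here. The remaining 6 genes had no match in either UTR. The hairpin was already known from several of these mRNAs, so their matches beside the share of all genes are no test of enrichment. A match describes the letters of the transcript and was not tested for binding.

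Values are given as CPM (TMM-scaled counts per M of DNA-corrected counts, used to compare libraries) and, where genes are compared with each other, as RPKM, which also divides by gene length. The corrected count table held 2.55 M to 12.52 M counts per library, with a limit of 3 counts corresponding to 0.249 to 0.897 CPM. All 6 macrophage markers, among them Adgre1 and Ptprc, the genes of the sort antigens, were found in every group, with sums of 1589.9 to 5912 CPM. DNA reads were uneven: before correction, olfactory receptor genes, which macrophages are not known to transcribe, took 32.9 to 1233 counts per M, most in SAM fibers 1, microglia 2 and SAM ganglia 3. The 2 SAM fibers libraries also resembled each other least (r = 0.605 across genes, against 0.781 to 0.959 for pairs in the other groups). A gene counted as called when its adjusted p in edgeR's quasi-likelihood test, over all tested genes, was under 0.05 and its log2 fold change was 1 or more in either direction.

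In spleen, 7 of the 10 genes were called higher than the mean of the other 5 groups (Slc40a1, Spic, Hmox1, Slc48a1, Blvrb, Slc11a1 and Ftl1) and none lower, against a background of 6.72% of all tested genes called higher and 5.72% called lower. Their median log2 fold change was 2.02, against -0.03 over all genes. All 3 SpM libraries lay above all 12 others for the same 7 genes, a pattern shown by 5.28% of tested genes. Microglia stood at the other end, with 7 genes called lower and 1 higher than the mean of the other groups (background 6.47% lower and 7.26% higher) and a median of -1.95 against 0.29 over all genes. The CPM of the 10 genes summed to 10885 to 13951 in SpM, 999 to 1228 in microglia and 2212 to 4436 elsewhere.

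**Figure D1:**
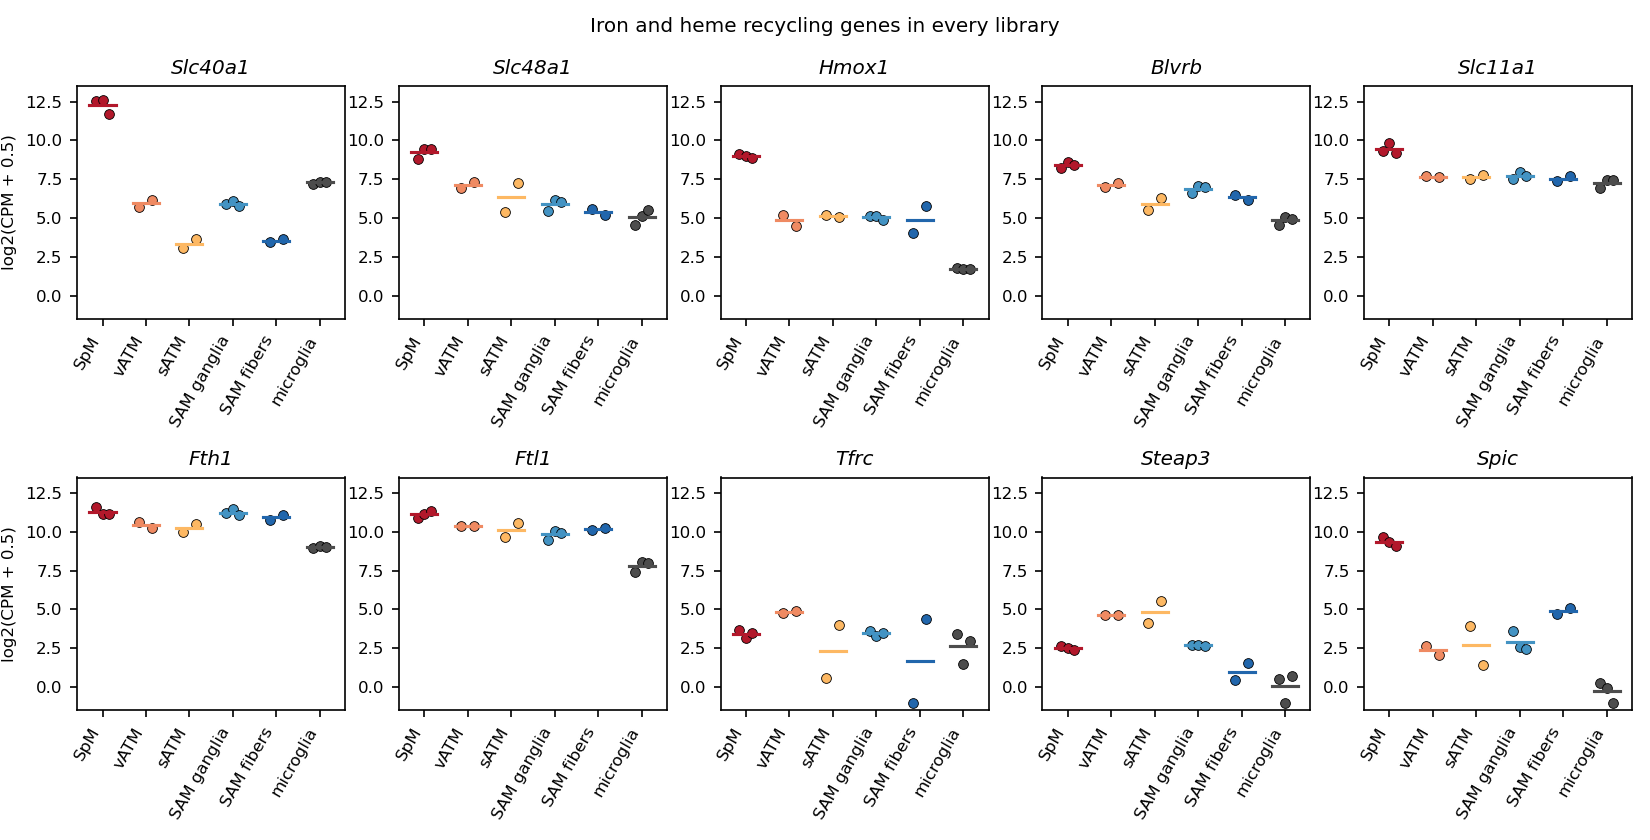
Level of each gene in each of the 15 libraries, as log2(CPM + 0.5) on a shared vertical scale; points are libraries and bars are group means of the log values. SpM points sit above all others in 7 panels, whereas Fth1 in SpM overlaps SAM ganglia, Tfrc is highest in vATM, and Steap3 is highest in both fat groups.

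Slc40a1, which encodes the exporter ferroportin (GRCm38 chr1:45908070-45925594, minus strand), spanned a wide range of levels. It measured 5867, 6274 and 3340.2 CPM in SpM, against 148, 161 and 162 in microglia. It was 59.2, 68.5 and 53.7 CPM in SAM ganglia and 51.3 and 71.7 in vATM. It was lowest in SAM fibers, at 10.2 and 12.0 CPM, and in sATM, at 7.82 and 11.9 CPM. The groups thus formed 4 tiers with no overlap between them: spleen, then microglia, then ganglia together with visceral fat, then fibers together with subcutaneous fat. In SpM its mean RPKM (1679.6 ± 533, SD, n = 3) ranked 18th of all genes.

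The spleen difference for Slc40a1 was 7.14 ± 0.20 (log2 fold change ± SE, edgeR's quasi-likelihood test, adjusted p = 3.55e-12) and was called under all 27 alternative settings. Each SE of a fold change is approximate, since the test itself gives none. It is the size of the log2 fold change divided by the square root of the test's F statistic. Where a group lies near 0 counts it is unreliable. Slc40a1 was also the 1 gene of the 10 called higher in microglia than in the mean of the other groups, although that mean includes spleen (1.09 ± 0.20, adjusted p = 0.000944). This call lies close to the fold threshold: without both SAM fibers libraries the value was 0.41 (adjusted p = 0.225), and it was 1.0 without SAM fibers 1 and 0.98 without sATM 1 or without vATM 1, all no longer called. In SAM ganglia Slc40a1 was lower than in microglia by -1.37 ± 0.27 (adjusted p = 0.00386). Without the 3 libraries of highest DNA background this was -1.28 (adjusted p = 0.0526).

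Slc40a1 was also called between the 2 SAM groups and between the 2 fat depots. Between SAM fibers and sATM, the fat beside them, it was not (0.16 ± 0.35, edgeR adjusted p = 0.783). It was higher in SAM ganglia than in SAM fibers (2.44 ± 0.34, edgeR adjusted p = 0.00131) and was the only one of the 10 called in that comparison, in which 2.85% of all tested genes were called higher and 1.27% lower. That background hangs on 1 library: without SAM fibers 2 it rose from 435 of 15289 genes higher to 2469 of 17593. The corrected count was 9.01% and 31.2% of the raw count over the whole gene body in the 2 fibers libraries, against 47.8% to 63.1% in ganglia; in the uncorrected table the difference was 3.15 (adjusted p = 0.394). Between the 2 fat depots only 6 of 15289 genes were called, 0.0196% in each direction, and Slc40a1 was 1 of them, lower in sATM than in vATM by -2.62 ± 0.35 (adjusted p = 0.016). The number of genes called there was itself unsteady: 67 higher and 15 lower with no filter, 84 and 35 with DESeq2, 52 and 16 without sATM 2, and 0 without sATM 1, vATM 1 or vATM 2. That call was lost in 8 of 27 alternative settings, including without sATM 1 (-2.27, adjusted p = 0.688), vATM 1 (-2.88, 0.25), vATM 2 (-2.20, 0.576) or microglia 1 (-2.57, 0.0656), each an adjusted p. The direction held in each.

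Slc48a1, the transporter that carries heme out of the phagolysosome, measured 447, 698 and 703 CPM in SpM. Next came vATM at 121 and 162 CPM and sATM at 41.5 and 154. Ganglia had 43.9, 69.9 and 65.7 CPM, fibers 47.1 and 35.8, and microglia 22.5, 34.9 and 44.1. Spleen was clear of all other libraries, while the neighbours in the order of the other 5 groups overlapped. The spleen difference was 3.24 ± 0.27 (edgeR adjusted p = 3.91e-07) and that of microglia -1.78 ± 0.36 (adjusted p = 0.00211).

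Hmox1, heme oxygenase 1, measured 549, 505 and 473 CPM in SpM. The 9 libraries of ganglia, fibers and fat ranged from 15.6 to 54.0 CPM, both extremes being SAM fibers libraries, and their group ranges overlapped. Microglia had 2.86, 2.76 and 2.76 CPM, below every other library. The spleen difference was 4.67 ± 0.24 (edgeR adjusted p = 2.28e-09), and microglia were lower by -4.32 ± 0.38 (adjusted p = 6.79e-07). Both calls held under all 27 alternatives.

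Blvrb, biliverdin reductase B, measured 292, 380.0 and 343 CPM in SpM. It was 129 and 155 CPM in vATM, 95.2, 135 and 124 in SAM ganglia, 89.1 and 72.1 in SAM fibers and 45.2 and 78.6 in sATM. Microglia were again lowest, at 23.3, 32.5 and 30.4 CPM. The order was therefore spleen, a middle range of peripheral tissues and then brain, with 2.17 ± 0.19 for spleen (edgeR adjusted p = 4.45e-07) and -2.10 ± 0.24 for microglia (adjusted p = 1.22e-05). Between the fat depots Blvrb differed by -1.19 ± 0.33 in sATM against vATM, which did not pass (adjusted p = 0.358).

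Slc11a1 (NRAMP1), which moves iron and manganese out of the phagolysosome, was nearly level outside spleen. It measured 621, 891 and 579 CPM in SpM and 119 to 245 in the 12 other libraries, whose group ranges overlapped from one neighbour in the order to the next. The spleen difference was 1.88 ± 0.18 (edgeR adjusted p = 1.21e-06, called under all 27 alternatives). In microglia it was -0.72 ± 0.21 (adjusted p = 0.0231), under the fold threshold.

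The ferritin chains were abundant in every group. Fth1 measured 3101, 2231 and 2278 CPM in SpM and 2379.7, 2785 and 2128 in SAM ganglia, ranges that overlap. It was 1731 and 2186 CPM in SAM fibers, 1568 and 1211 in vATM, 1037 and 1421 in sATM and 505, 555 and 518 in microglia. Fth1 was therefore high in spleen and in ganglia alike. It missed the fold threshold in spleen (0.92 ± 0.18, edgeR adjusted p = 0.00148), where 7 of 27 alternatives called it, at up to 1.12 on either RPKM scale. It also missed it in SAM against the other 4 groups (0.83 ± 0.16, adjusted p = 0.00266). It was lower in microglia by -1.80 ± 0.21 (adjusted p = 1.44e-05).

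Ftl1 measured 1859, 2315 and 2607 CPM in SpM, above all other libraries. It was 1312 and 1321 CPM in vATM, 826 and 1532 in sATM, 1096 and 1192 in SAM fibers and 722, 1078 and 969.7 in SAM ganglia. Microglia had 167, 263 and 251 CPM. Ftl1 was thus higher in spleen (1.46 ± 0.20, edgeR adjusted p = 6.61e-05) and lower in microglia (-2.52 ± 0.26, adjusted p = 4.1e-06). In the uncorrected table the spleen difference was as large but not called (1.64, adjusted p = 0.227). Both ferritin genes have processed pseudogene copies of near-identical sequence in the mouse genome, and how reads with several matches were counted is not given in the sources used here, so their levels are uncertain to that extent.

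The balance of the 2 ferritin chains differed among tissues. The ratio of Ftl1 to Fth1 RPKM was 0.474, 0.604 and 0.712 in SAM ganglia and 0.516, 0.739 and 0.758 in microglia. It was 0.989 and 0.851 in SAM fibers, 0.937, 1.62 and 1.79 in SpM, 1.24 and 1.68 in sATM and 1.31 and 1.70 in vATM. In RPKM, Fth1 therefore exceeded Ftl1 in all 8 libraries of nervous tissue. Ftl1 exceeded Fth1 in all 4 fat libraries and in 2 of 3 from spleen. SpM 1, at 0.937, lay between the 2 SAM fibers libraries. Which gene was higher depends on the lengths used, 1506 for Fth1 and 964 for Ftl1. In CPM, Fth1 was also the higher in sATM 1 (1037, Ftl1 826) and vATM 1 (1568, Ftl1 1312). Ganglia and microglia shared a low ratio although their ferritin totals differed: Fth1 and Ftl1 together came to 1959 to 2929.6 RPKM in ganglia and 504 to 891 in microglia. In every group but SAM fibers the library numbered 1 had the lowest ratio. These ratios are a description, without a test.

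Set against ferritin, ferroportin placed microglia beside spleen. Slc40a1 RPKM was 43.7%, 47.9% and 23.5% of the ferritin sum in SpM and 8.64%, 7.45% and 7.94% in microglia. It was 0.754%, 0.685% and 0.658% in SAM ganglia, 0.634% and 0.979% in vATM, 0.15% and 0.139% in sATM and 0.132% and 0.133% in SAM fibers. Microglia thus combined the lowest storage transcripts with the second highest exporter transcript. RNA of the 2 is compared here, not protein, and all 3 genes carry the 5′ UTR hairpin shown above.

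**Figure D2:**
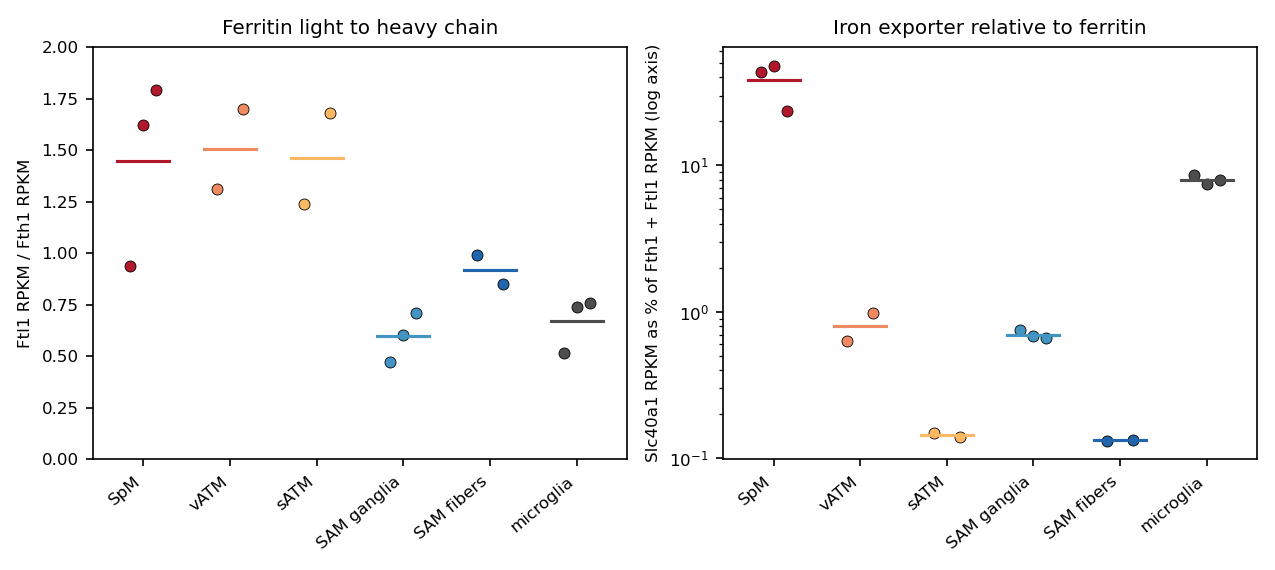
Left, ratio of Ftl1 to Fth1 RPKM in each library; right, Slc40a1 RPKM as a percentage of the sum of Fth1 and Ftl1 RPKM, on a log axis; points are libraries and bars are group means. SAM ganglia and microglia lie below 1 on the left, and on the right microglia (7.45% to 8.64%) lie between SpM (23.5% to 47.9%) and all other groups (under 1%).

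Tfrc, the transferrin receptor through which cells take up iron from plasma, had low counts throughout and is the gene with the 3′ UTR hairpins. It measured 26.7 and 29.3 CPM in vATM, above all other libraries, a pattern shown by 1.75% of tested genes. It was 12.5, 8.33 and 10.8 CPM in SpM, 11.6, 9.45 and 10.7 in SAM ganglia and 10.3, 2.25 and 7.20 in microglia. The 2 libraries of sATM (1.02 and 15.6 CPM) and of SAM fibers (0 and 19.9 CPM) disagreed widely. Tfrc was called in none of the 7 comparisons; the spleen difference was -0.08 ± 0.74 (edgeR adjusted p = 1), with an error too wide to detect a change of the size of the fold threshold, and 1.75 without SAM fibers 2. Summed CPM of 8 cell cycle genes was 103 and 144 in vATM and 45.9 and 189 in sATM, against 23.7 to 65.9 in the spleen, brain and ganglia libraries and 28.3 and 121 in fibers. In sATM, fibers and vATM the library with more Tfrc was the one with more cell cycle RNA. In SpM, SAM ganglia and microglia the library with most Tfrc was not the one with most cell cycle RNA. The library with least of both was the same 1 in each of these. In SAM fibers 1 and sATM 1, both low in Tfrc, corrected counts were 0 and 4 where raw gene-body counts were 474 and 82. The part of cell cycle RNA in the Tfrc level was not tested.

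Steap3, a ferrireductase of endosomes that handles transferrin iron, was highest in fat: 17.1 and 46.9 CPM in sATM and 24.0 and 24.9 in vATM. SAM ganglia had 6.04, 5.91 and 5.76 CPM and SpM 5.81, 5.22 and 4.63. SAM fibers had 0.847 and 2.44 CPM and microglia 0.926, 0 and 1.13, at or near the limit of 3 counts. Spleen thus overlapped ganglia and lay below all 4 fat libraries. It was lower in SAM fibers than in sATM (-4.18 ± 0.78, edgeR adjusted p = 0.00719), the only one of the 10 called in that comparison (background 1.85% higher, 2.99% lower). For the 2 fibers libraries the uncorrected table held 876 and 229 counts where the corrected one held 3 and 12. In the uncorrected table the difference was -1.23 (adjusted p = 0.476), and without sATM 2 it was -3.33 (adjusted p = 0.0945). Microglia were lower by -3.44 ± 0.59 (adjusted p = 0.00056), and -0.91 in the uncorrected table (adjusted p = 0.786).

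Spic, which encodes a transcription factor of red pulp macrophages, measured 802, 643 and 547 CPM in SpM. The next highest group was SAM fibers, at 25.2 and 33.7 CPM, with no overlap with any other group. It was 11.7, 5.58 and 5.02 CPM in SAM ganglia, 14.7 and 2.20 in sATM and 5.82 and 3.73 in vATM. Microglia had corrected counts of 8, 2 and 0, close to nothing above the limit of detection. The spleen difference was 6.99 ± 0.39 (edgeR adjusted p = 5.45e-09), and that of microglia -5.60 ± 0.70 (adjusted p = 2.74e-05), both called under all 27 alternatives; with microglia near the limit of detection, the size of the latter is loosely set and ranged from -7.10 to -3.74.

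The higher Spic of SAM fibers did not pass against SAM ganglia (ganglia minus fibers -2.0 ± 0.60, edgeR adjusted p = 0.0756) or against sATM (1.87 ± 0.69, adjusted p = 0.135). It was called under 6 of 26 alternatives in the former comparison and 4 in the latter, and turned sign in the uncorrected table in both (1.5, adjusted p = 0.629, and -0.91, adjusted p = 0.723). Erythroid RNA was highest in SAM fibers, where 9 genes such as hemoglobins summed to 4623 and 1655 CPM. The sum was 637 to 886 in SAM ganglia, 204 to 643 in SpM and 366 and 138 in sATM. It was 98.8 to 141 in microglia and 54.7 and 26.8 in vATM. SAM fibers 1 had more erythroid RNA but less Spic (25.2 CPM) than SAM fibers 2 (33.7 CPM). In sATM and in vATM the library numbered 1 had more of both. Slc4a1 and Klf1 were at 0 in both fibers libraries. The part of erythroid RNA in the Spic level was not tested. In these bulk libraries fewer cells of a type and less RNA per cell cannot be told apart.

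**Figure D3:**
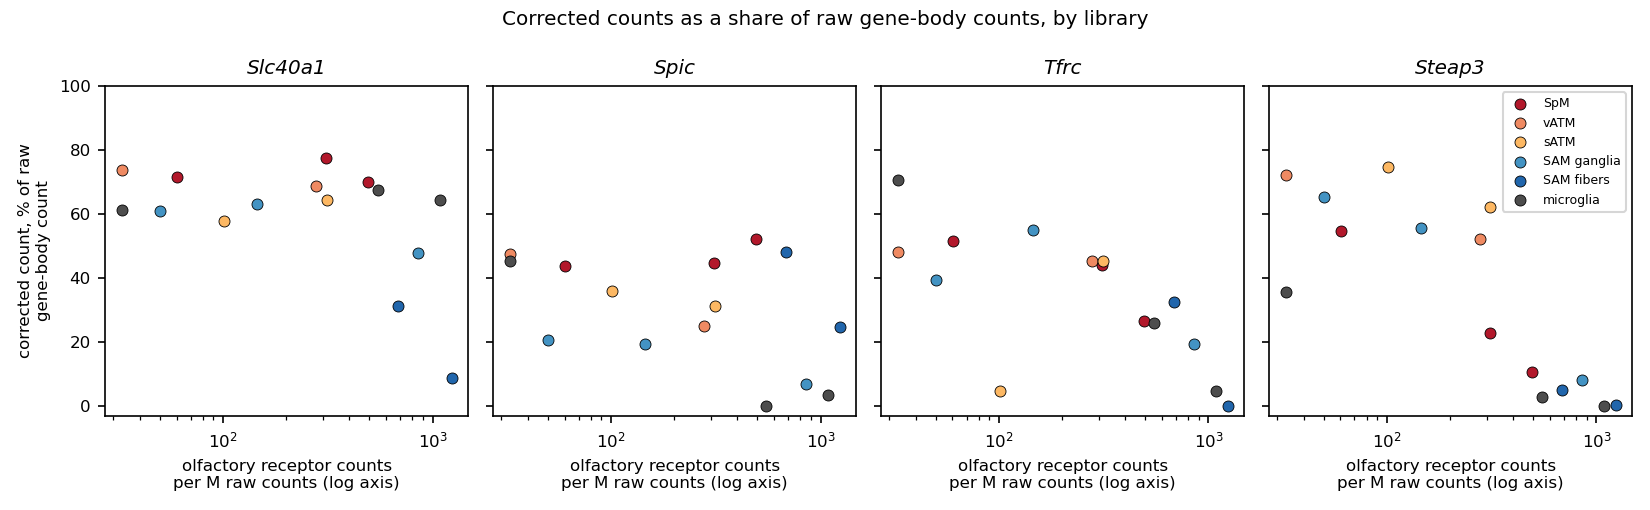
Corrected count as a percentage of the raw gene-body count for Slc40a1, Spic, Tfrc and Steap3 (vertical axis) against olfactory receptor counts per M raw counts, a measure of DNA reads (horizontal log axis); each point is a library, coloured by group. Shares for Steap3 reach from 0% to 74.7% and are lowest in libraries with most DNA reads, while Slc40a1 is at 47.8% to 77.4% outside the 2 SAM fibers libraries.

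The 10 genes differed in how much of the raw count the corrected table holds. The raw counts cover the whole gene body, introns included, and the corrected table lists lengths of the size of transcripts, so both the reads counted and the removal of DNA reads enter the share. Corrected counts were 82.1% to 97.8% of the raw gene-body counts for Ftl1, 64.8% to 95.0% for Slc48a1, 63.5% to 73.5% for Fth1 and 61.4% to 76.0% for Slc11a1. The shares were 36.6% to 63.2% for Blvrb and 17.9% to 63.7% for Hmox1. They ran from 0% to 52.2% for Spic, 70.8% for Tfrc and 74.7% for Steap3. The ferritin genes, Slc48a1 and Slc11a1 thus had most of their raw count in the corrected table in every library, while Spic, Tfrc and Steap3 each had none in at least 1 library.

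SAM, the mean of ganglia and fibers, against the mean of the other 4 groups is the contrast on which the series centres. None of the 10 genes was called higher and 2 were called lower (background 5.71% higher, 3.44% lower), with a median of -0.09 against 0.02 over all genes. The first was Slc40a1, at -2.52 ± 0.22 (edgeR adjusted p = 1.25e-06). The mean of the other 4 includes spleen and microglia, the groups with most Slc40a1; against vATM the ganglia overlapped and against sATM so did the fibers. The second was Slc48a1, at -1.39 ± 0.29 (adjusted p = 0.00588), which was -1.12 without both fibers libraries (adjusted p = 0.0749). The remaining 8 genes, Spic, Hmox1 and Blvrb among them, were not called.

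The 2 macrophage populations of nervous tissue with 3 libraries each differed in most of these genes. In SAM ganglia 6 genes were called higher than in microglia and 1 lower (background 4.91% higher, 2.03% lower), with a median of 2.03 against -0.13 over all genes. Spic was higher by 4.0 ± 0.76 (edgeR adjusted p = 0.0028), Hmox1 by 3.52 ± 0.40 (adjusted p = 2.76e-05) and Steap3 by 2.93 ± 0.64 (adjusted p = 0.00834). Steap3 was 1.18 (adjusted p = 0.0948) on the log2(RPKM + 1) scale and 0.17 (adjusted p = 1) in the uncorrected table. The ferritin chains and Blvrb were higher by close to the same amount: Fth1 by 2.21 ± 0.25, Blvrb by 2.04 ± 0.27 and Ftl1 by 2.03 ± 0.29, each with an adjusted p of at most 0.000216. Slc40a1 alone was called the other way, as given above. These values and those of microglia against the other 5 groups share the microglia libraries. All 3 microglia libraries lay below all others for Hmox1, Spic, Fth1, Ftl1 and Blvrb, a pattern shown by 3.32% of tested genes.

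**Figure D4:**
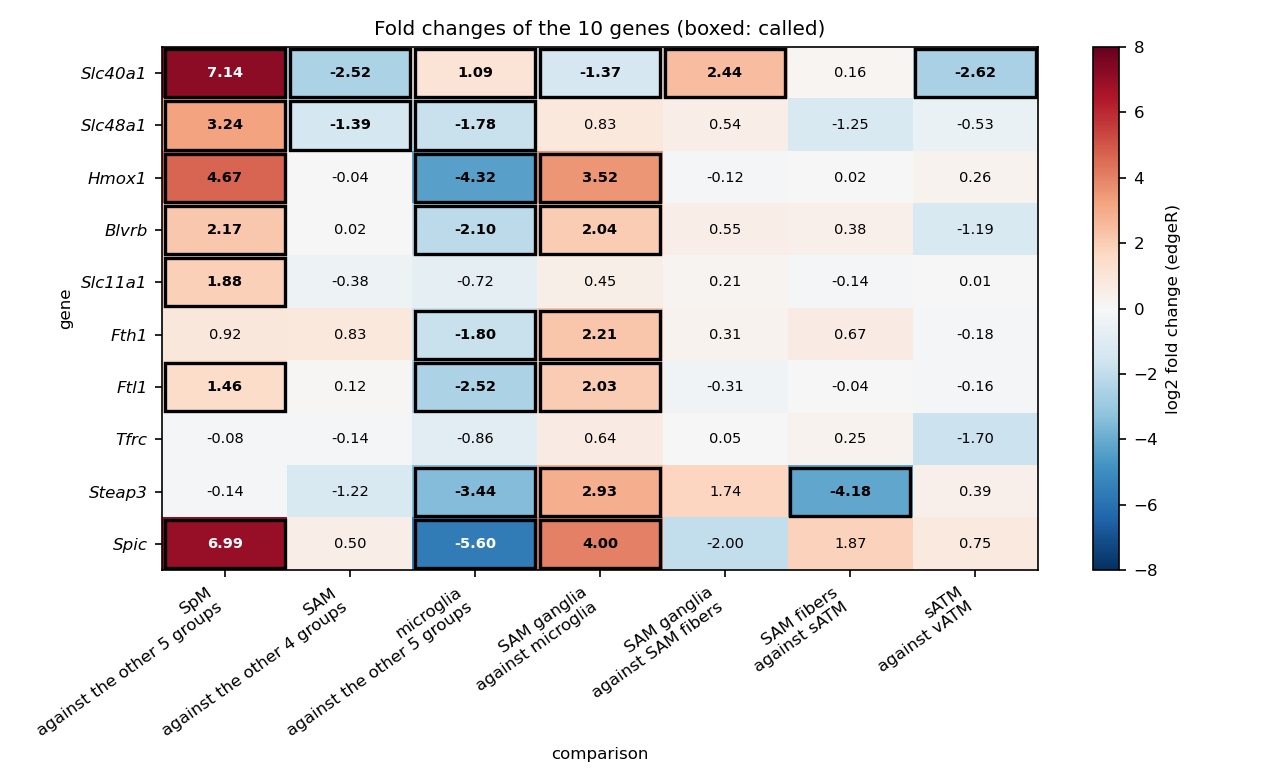
Log2 fold changes of the 10 genes (rows) in the 7 comparisons (columns) from edgeR's quasi-likelihood test; colour and printed number give the value and a black box marks a called difference. The spleen column has 7 boxes, all positive, the microglia column has 7 negative boxes and 1 positive box (Slc40a1), and the last 3 columns have 1 box each.

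Other genes of iron and heme handling were taken from lists by role, from heme uptake to mitochondrial iron. Of 61 listed genes, 58 were in the count table and 46 were tested. In spleen 7 of the 46 were called higher and 4 lower (background 6.72% and 5.72% of all tested genes), with a median of 0.18 against -0.03 over all genes. The members nearest to heme breakdown were among those higher: Por, the reductase that supplies heme oxygenase with electrons (2.24 ± 0.21, edgeR adjusted p = 1.19e-06), and Blvra, the other biliverdin reductase (2.03 ± 0.22, adjusted p = 5.35e-06). Hmox2, the last gene of that list of 3, was not called.

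Spleen was also higher for Trf, which encodes transferrin, at 2007 ± 463 CPM (SD, n = 3) against group means of 342 to 921 elsewhere (1.87 ± 0.20, edgeR adjusted p = 6.71e-06). Lrp1, the receptor for hemopexin-bound heme, was higher by 1.26 ± 0.20 (adjusted p = 0.000279). Bach1, the heme-sensitive repressor of Hmox1, was lower by -1.83 ± 0.41 (adjusted p = 0.00474), at 12.3 to 21.1 CPM in SpM against 25.0 to 128 in the other libraries. Nfe2l2, which encodes NRF2, an activator of Hmox1, was also called lower, by -1.41 (adjusted p = 0.00896); it lies outside the rule for naming genes and was picked after its value was seen. Nr1h3, which encodes the nuclear receptor LXR alpha, had corrected counts of 2190, 2064 and 1621 in SpM, 0 to 54 in the other groups and 0 in all 3 microglia libraries and in SAM fibers 1, where raw gene-body counts were 15 to 192. It was called higher in spleen (adjusted p = 1.8e-08); no fold is given, since 1 group stood at 0. None of the 8 tested genes of heme synthesis and none of the 6 of mitochondrial iron was called in spleen.

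In SAM, 5 of the 46 were called higher and 3 lower (background 5.71% and 3.44%). Cp, ceruloplasmin, a ferroxidase that works with ferroportin, was 103 ± 21.6 CPM in SAM ganglia (SD, n = 3) and 23.3 and 58.1 in SAM fibers, against 0 to 23.8 in the other groups (3.43 ± 0.39, edgeR adjusted p = 2.82e-05). Ganglia were thus clear of the other 4 groups, while fibers 1 fell just within the range of vATM. Cd163, the hemoglobin-haptoglobin scavenger receptor, was higher by 1.91 ± 0.29 (adjusted p = 0.00036), a difference in which microglia, at 0 to 1.65 CPM, are part of the other side. The highest Cd163 mean was that of vATM, at 144 CPM, against 128 in SAM fibers and 95 in SAM ganglia. SAM ganglia (69.5 to 121 CPM) overlapped SpM (74.7 to 108 CPM). Alas2, the erythroid first enzyme of heme synthesis, was higher by 2.80 ± 0.62 (adjusted p = 0.00842), and had its highest mean in fibers (6.34 and 22.7 CPM), the group with most erythroid RNA; the part of that RNA was not tested. Alas1, the enzyme of the same step in other cells, was lower by -1.15 ± 0.29 (adjusted p = 0.0184), as were Keap1, the inhibitor of the stress factor NRF2 (-1.35 ± 0.25, adjusted p = 0.00226), and Nfs1, the sulfur donor of iron-sulfur clusters (-1.08 ± 0.25, adjusted p = 0.00968). In SAM fibers 1 and 2 the corrected counts were 14 and 45 for Alas1, against raw gene-body counts of 337 and 237. They were 18 and 58 for Keap1 (raw 176 and 127) and 12 and 18 for Nfs1 (raw 501 and 187). The SAM ganglia mean was close to that of SpM for Alas1 (19.4 and 17.3 CPM). It was close to that of microglia for Nfs1 (11.5 and 11.4 CPM), and below it for Keap1 (14.4 and 18.7 CPM).

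In microglia 4 of the 46 were called higher and 5 lower (background 7.26% and 6.47%), the former close to the share among all genes. Slc46a1, which encodes a transporter of folate and heme, measured 67.9 to 94.6 CPM in microglia and 0.137 to 18.0 in all other libraries (3.98 ± 0.46, edgeR adjusted p = 1.22e-05). Abcg2, a transporter that exports heme among other substrates, was higher by 2.55 ± 0.54 (adjusted p = 0.0034) and Slc25a37, the mitochondrial iron importer mitoferrin 1, by 1.01 ± 0.20 (adjusted p = 0.00166). Cd163 was lower by -6.24 ± 0.53 (adjusted p = 5.1e-07) and Cp by -4.22 ± 0.65 (adjusted p = 0.000219). In the corrected counts microglia thus had little RNA for the scavenger receptor CD163 and for ceruloplasmin, while that for Slc46a1 was well above all other groups. For Cp the corrected counts of microglia were 28, 0 and 2, where raw gene-body counts were 1040, 553 and 533. For Cd163 they were 19, 0 and 10, where raw counts were 59, 155 and 123. The size of the Cp and Cd163 differences that involve microglia is therefore loosely set.

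Against microglia, ganglia had 3 of the 46 higher and 2 lower (background 4.91% and 2.03%): Cp (6.47 ± 0.75, edgeR adjusted p = 3.72e-05) and Cd163 (6.26 ± 0.56, adjusted p = 2.99e-06) were higher, Slc46a1 (-2.92 ± 0.70, adjusted p = 0.0149) and Slc25a37 (-1.24 ± 0.27, adjusted p = 0.00743) lower. Against fibers, ganglia had 1 of the 46 higher, Nfs1, and 1 lower (background 2.85% and 1.27%, close to these counts). The latter was Hp, which encodes haptoglobin, the carrier of free hemoglobin (-3.13 ± 0.72, adjusted p = 0.0224). Hp was 24.9 and 64.6 CPM in fibers and 2.82 to 6.38 in ganglia, but 19.7 and 98.6 in sATM, from the fat beside the fibers. Fibers against sATM had none of the 46 higher and 4 lower (background 1.85% and 2.99%), among them Alas1 (-2.10 ± 0.52, adjusted p = 0.0316), Nfs1 (-1.79 ± 0.44, adjusted p = 0.0297) and Keap1 (-1.56 ± 0.43, adjusted p = 0.0498). For Alas1, Nfs1 and Keap1 the corrected count of SAM fibers 1 was a small part of the raw one, as given above. Nfs1 in ganglia against fibers shares that limit. No listed gene was called between the fat depots.

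**Figure D5:**
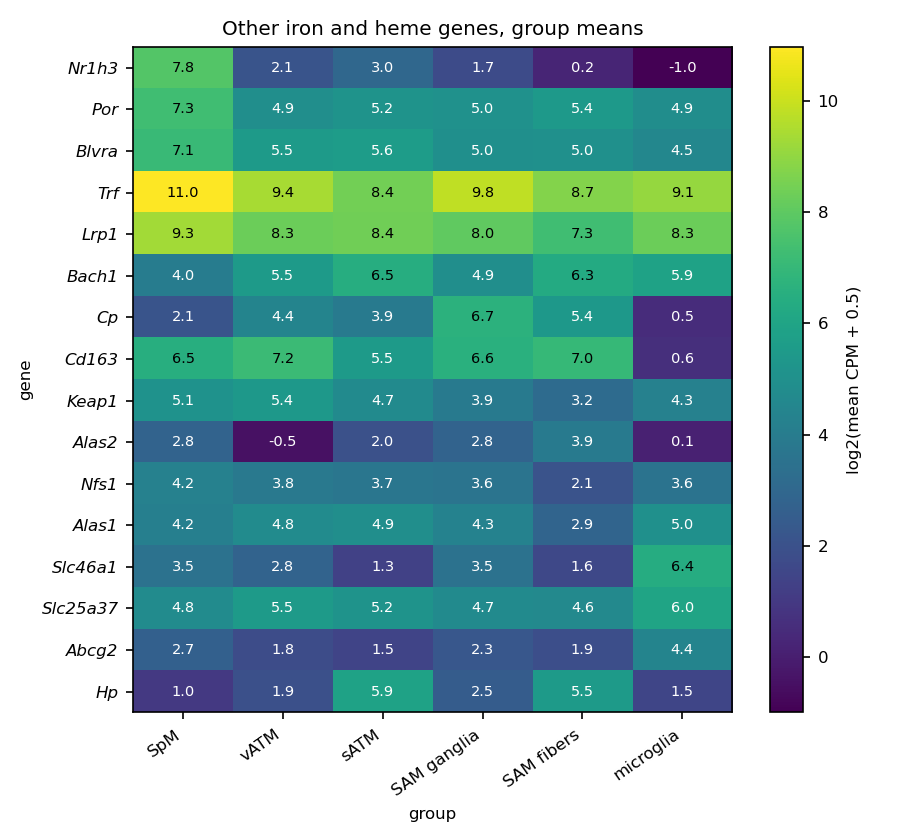
Group means of 16 other iron and heme genes named in the text, as log2(mean CPM + 0.5); rows are genes, columns are groups, and colour and printed number give the level. Nr1h3, Por, Blvra, Trf and Lrp1 are brightest in SpM, Cp in SAM ganglia, and Slc46a1 in microglia.

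Among themselves the 10 genes fell into those that followed spleen and those that did not. Over the 15 libraries, Pearson's r of log2(CPM + 0.5) was 0.943 for Hmox1 with Spic, 0.915 for Slc11a1 with Slc48a1 and 0.904 for Hmox1 with Blvrb. Slc40a1 ran with Slc11a1 (0.814) but less with Hmox1 (0.568) and Ftl1 (0.255). Microglia were second highest for Slc40a1 and lowest for Hmox1 and Ftl1. SAM fibers and sATM were lowest for Slc40a1 but not for Hmox1 or Ftl1. The part of any group in these correlations was not tested. Tfrc and Steap3 ran weakly with the rest, the highest values being 0.47 for the pair and 0.602 for Steap3 with Ftl1. The points are libraries that share tissue and depth, and spleen weighs on each value, so these are descriptions only.

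Over 8072 genes with a mean above 10 CPM in some group, those whose log2 CPM ran most closely with a member were picked by the same r. For Hmox1 they were Clec4n (0.984) and the phosphatase gene Acp5 (0.958), and for Spic they were Vcam1 (0.954) and Slpi (0.945). Vcam1, an adhesion molecule and red pulp marker, averaged 3718 CPM in SpM, 87.8 in SAM fibers and 3.54 in microglia, the same order at the top and bottom as Spic. A like order follows from picking Vcam1 by its r with Spic and is no further evidence. For Slc40a1 the closest were Slc16a9 (0.959) and Fhod1 (0.957), the latter at 231 CPM in SpM and 34.8 in microglia and 10.1 to 22.7 elsewhere. For Slc48a1, the second closest was Blvra (0.96), a gene of the pathway list. Fth1 ran with Gpr65 (0.942) and Ccnd2 (0.931), and Ftl1 with Fam234a (0.952) and Cfp (0.946). Steap3, high in fat, ran with Cct5 (0.956) and Rassf4 (0.954), and Tfrc with Psmd12 (0.926).

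Markers of red pulp macrophages, 8 genes with Vcam1 among them, summed to 5874 to 7966 CPM in SpM and 163 to 472 elsewhere, and Itgad was at 0 in sATM, SAM fibers and microglia. Vcam1 made the largest part of the SpM sum, at a mean of 3718 CPM. Every listed gene but Siglec1 had its highest mean in SpM. Siglec1 averaged 46.3 CPM there, against 90.1 in SAM ganglia, 64.8 in vATM and 59.6 in sATM. It was 28.2 CPM in SAM fibers and 1.13 in microglia. The spleen libraries thus carried most of these markers of the cells known for iron recycling at their highest level. Markers of other cells were low beside these in SpM: neutrophil genes summed to 5.05 to 27.4 CPM, monocyte genes to 12.7 to 21.6 and lymphocyte genes to 91.7 to 128. Erythroid genes summed to more than these, 204 to 643 CPM. The lymphocyte sum was nevertheless highest in SpM (at most 51.8 elsewhere), and Cd79a, Cd79b and Cd4 of its 8 genes were called higher in spleen. Monocyte genes were higher in sATM (1179 to 1906 CPM), vATM (775 to 973), SAM ganglia (529 to 858) and SAM fibers (637 to 745), and low in microglia (8.70 to 60.4). SAM fibers had the highest sums of fibroblast genes (167 to 246 CPM), against at most 53.3 in the other groups, and of neutrophil genes (114 to 126 CPM, against at most 62.1). The part of these cell types in the levels of the 10 genes was not tested.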

How the data were processed

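The 3 deposited tables of the whole series, covering all 15 libraries, were used, and every column of values was mapped to a library by its name. STAR, HOMER and mm10 are named, without versions, per the submitters' processing notes; strand use and the treatment of reads with several matches are not stated by any label or header read here. The raw table holds whole-number counts over each whole gene body, introns included, deposited by the authors (7.79 M to 25.48 M per library). The second table holds estimated counts from which the authors removed reads ascribed to DNA, as the deposited file's name says, and the third holds RPKM values the authors deposited after the same removal. The rounded estimated counts went into edgeR 4.0.16 (R 4.3.3; glmQLFit and glmQLFTest, TMM scaling, filterByExpr with a minimum count of 10, Benjamini-Hochberg adjustment over 15289 genes). All 15 libraries entered 1 fit with 1 mean per group, and comparisons weight groups equally on the log scale. Of the 61 other iron and heme genes, up to 6 called ones per comparison were named, by p, where the higher side had at least 10 CPM. Genes named for their likeness were among the 3 highest in r per member. The members and lists were chosen with earlier results of these data known. Alternatives used DESeq2 1.42.0 and limma 3.58.1. The script was tested on simulated data.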

Additional observations from a re-analysis of the deposited data

How the results depend on the processing

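Of 27 called values of the 10 genes, 8 kept their call in all alternatives tried; over 727 alternative values 691 kept the call, 36 lost it and 0 reversed. The uncorrected gene-body counts lowered the counts most. With them SAM had 0 genes lower, microglia 0 higher and 2 lower, ganglia against microglia 0 higher and 0 lower, ganglia against fibers 0 higher, and fibers against sATM and sATM against vATM 0 lower. There, 14 of the 43 uncalled values changed sign, among them Fth1 in SAM (-0.17), Spic (1.5) and Steap3 (-0.40) in ganglia against fibers, and Spic in fibers against sATM (-0.91). In the other alternatives 0 to 10 did, most without sATM 1. Tfrc in SpM, near 0, turned to 0.24 with voom, 0.64 and 0.2 with log2(RPKM + 0.1) and log2(RPKM + 1) and 0.06 with the replicate block, and ran from -0.25 to 1.75 over the libraries left out. Without both SAM fibers libraries SAM had 1 gene lower and microglia 0 higher. Without the 3 libraries of highest DNA background, an alternative chosen after seeing the data, ganglia against microglia had 0 lower. With limma voom and quality weights, ganglia against fibers had 0 higher, and fibers against sATM and sATM against vATM 0 lower. With RLE scaling, no filter, DESeq2 or log2(RPKM + 1), ganglia against fibers had 1 lower (Spic), and with the last 3 of these fibers against sATM had 1 higher (Spic). With no filter fibers against sATM had 2 lower. With log2(RPKM + 0.1) or log2(RPKM + 1), sATM against vATM had 0 lower. The cause was not tested.

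Leaving out each library in turn gave 7 to 8 genes higher in SpM, 2 to 4 lower in SAM (4 without SAM fibers 2), 0 to 1 higher and 7 lower in microglia, and 6 higher and 1 lower in ganglia against microglia. Ganglia against fibers gave 1 to 2 higher (2 without SAM fibers 2) and 0 to 1 lower (1 without sATM 1 or sATM 2). Fibers against sATM gave 0 to 1 higher (1 without sATM 1) and 0 to 3 lower (3 without SAM fibers 2, 2 without sATM 1, 0 without sATM 2), and sATM against vATM 0 to 1 lower. Where 1 library was left in a group, it was taken to vary like the others. RLE scaling moved the median of all genes from 0.02 to 0.19 in SAM, from 0 to -0.25 in ganglia against fibers and from 0 to 0.28 in fibers against sATM, and the share of calls that were higher from 62.4% to 72.3%, 69.2% to 50.3% and 38.2% to 57.1%. Without SAM fibers 2, genes called lower over all genes tested rose from 526 to 2287 in SAM and from 457 to 2515 in fibers against sATM. No label ties libraries by replicate number, and the numbers did not meet the bar for pairing: over 33 same-numbered pairs the correlation of deviations ran from -0.381 to 0.639 (median 0.095), against a median of -0.069 over 60 pairs of unlike number. As a hint of a shared effect, the 10 pairs of libraries numbered 1 outside SAM fibers ran from 0.18 to 0.639, while 8 of 15 libraries were closest to one of their own number. With the replicate number as a block, SpM had 7 higher, microglia 7 lower and 1 higher and ganglia against microglia 6 higher and 1 lower, and no other count of calls among the 10 genes changed.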
